A study of Mus musculus with 24 samples.

Results

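A set of 10 genes of 3 families of transcription factors was followed in ischemic mouse liver. They are Egr1, Egr2 and Egr3, Nr4a1, Nr4a2 and Nr4a3, and Klf2, Klf4, Klf6 and Klf10. They were listed by name, as known immediate early genes, with earlier results of these data in view. Each of the 10 had 1 probe set whose RefSeq accession maps to its symbol, among 14351 genes with a probe set.

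The young mice were 4 to 5 weeks of age, and the adults were 12 to 14 months of age. Mice of each age had a sham operation or 30, 60 or 90 min of partial hepatic ischemia, in which blood flow to some of the lobes is stopped, so there were 8 groups with 3 arrays in each. Total RNA of the median and left lobes was hybridized to Affymetrix 3' arrays, which read the transcript near its polyadenylated end. Strain and sex are not given in the labels, and the labels do not say how long after ischemia the lobes were taken beyond a 0 that follows the ischemia time in the sample titles.

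Immediate early genes are transcribed within minutes of a stimulus from factors already present in the cell, such as SRF with its partners, CREB and MEF2, and without new protein synthesis. Egr proteins are zinc finger activators that bind GC-rich sites and are held in check by the corepressors Nab1 and Nab2. Nr4a proteins are orphan nuclear receptors that act without a known natural ligand, bind DNA as monomers, and in liver are known to be induced through cyclic AMP and to raise genes of glucose production. Klf proteins are zinc finger factors that bind GC-rich and CACCC elements. Klf2 and Klf4 are known in endothelium as genes induced by blood flow, Klf6 was first described in hepatic stellate cells, and Klf10 is a TGF-beta-inducible gene that in liver is also under the circadian clock.

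One of the 10 genes passed the test in 1 comparison with sham: Nr4a1 rose in adult liver after 90 min, to 1.78 times the sham level. The test was limma, a linear model fitted to all 14351 genes, and a gene passed at a Benjamini-Hochberg adjusted p under 0.05. Each value is an array's ratio to the average of its own age's 3 sham arrays, so sham is 1 on average for each gene by construction, the sham levels of adult and young liver cannot be compared, and no gene's level can be set against another's. Changes below are differences of mean log2 ratios with their standard error (SE), on 3 arrays a group.

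**Figure D1:**
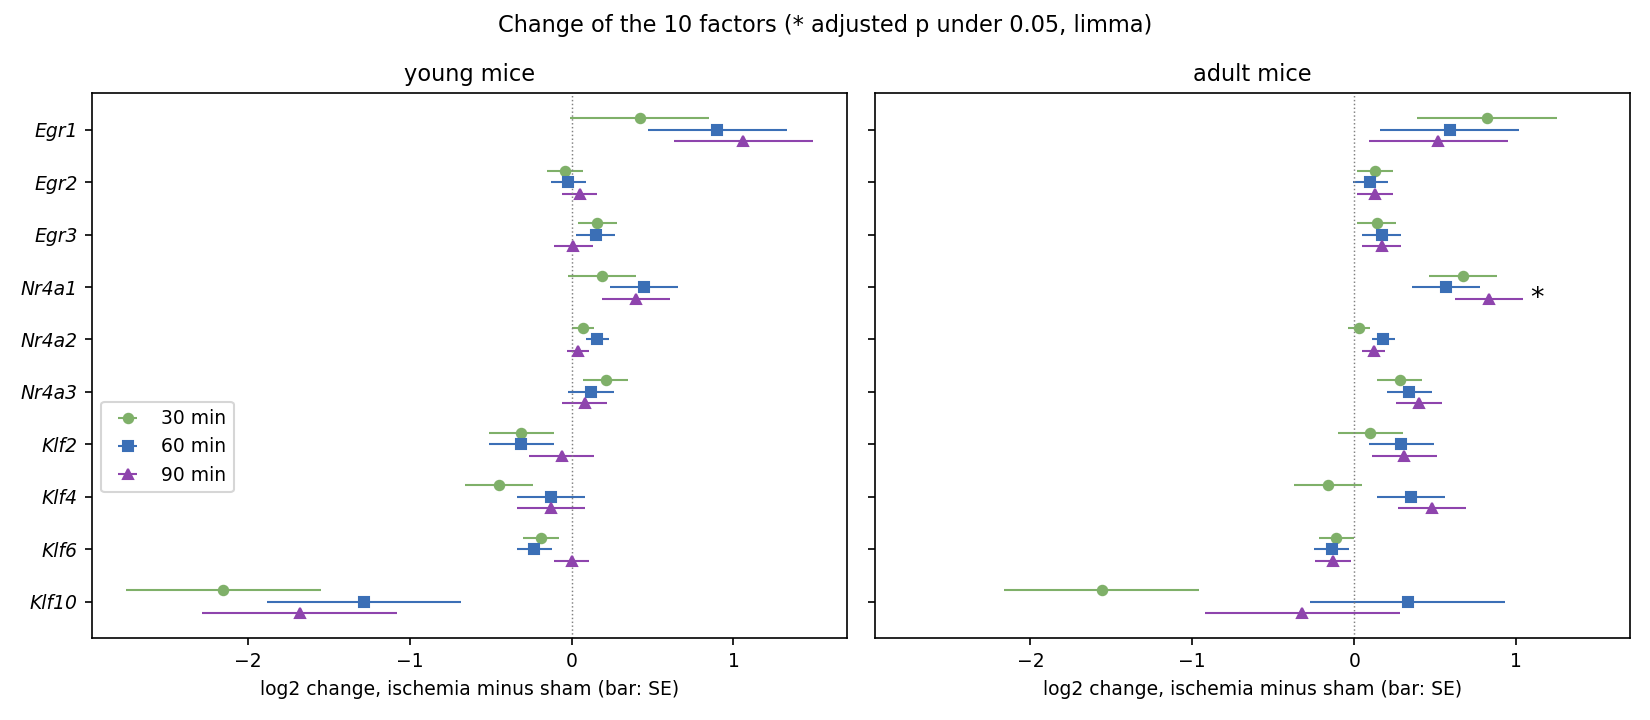
Change of each of the 10 factors on the log2 scale, ischemia minus sham of the same age, in young (left) and adult (right) liver; points are limma estimates at 30, 60 and 90 min and bars are 1 SE. The star marks Nr4a1 in adult liver at 90 min (0.83), the value that passed the test, and Klf10 has the lowest values, down to -2.15 in young liver at 30 min.

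The background for these counts differed between the ages. In young liver 0.0557% of all genes passed at 30 min, 0.0279% at 60 min and 0.181% at 90 min, and none of the 10 factors did. At an unadjusted p under 0.05 the factors numbered 2, 4 and 2 of 10, against 8.36%, 10.4% and 9% of all genes. In adult liver 0% of genes passed at 30 min, where 1486 genes (10.4%) and 2 of the factors had an unadjusted p under 0.05. At 60 min 11.9% of all genes and 0 of 10 factors passed, and at 90 min 7.45% of all genes and 1 of 10 factors. At each of these times 3 of 10 factors were under an unadjusted 0.05, which is close to the 33.3% and 28.6% of all genes. A share of 1 in 10 that passed is near the background too. When the 3 ischemia times and sham of an age were tested together, 0.0906% of genes passed in young and 0.516% in adult liver. None of the 10 factors was among them, and 1 and 4 of them respectively had an unadjusted p under 0.05, against 9.18% and 24.2% of all genes.

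Some arrays stood apart from their group before any comparison. Adult sham replicate 2 was the highest of its group for Egr1, Nr4a1 and Jun and the lowest for Klf10, and Nr4a1, Egr1 and Klf10 are given with and without it in adult liver. Without it, the adult changes of the other 7 factors from sham kept their direction at all 3 times and none of them passed. Young sham replicate 3 was the lowest of its group for Klf10 and Nr4a1. The sample titles carry a code whose first part takes 7 values over the 24 arrays. What it stands for is not stated. No value is shared by young and adult arrays, so age and this part of the code cannot be told apart. Differences between ischemic and sham arrays that share a value could be formed for 5 pairs in young and 8 in adult liver, and they are given as counts or values. In the young pair at 30 min and the adult pair of sham replicate 3 at 90 min, the ischemic side averages replicates 2 and 3. The pairs reuse the sham arrays of their age, so they are not independent of each other. The second part of the code takes a single value in 5 of the 8 groups, so there it cannot be told apart from the group. The labels speak of separate mice for the 3 arrays of a group. Each p-value sets a change against a spread within groups that was estimated over all 8 groups together and drawn toward that of other genes. A narrow or wide group is thus not judged by its own spread alone. RNA of whole lobes was measured, so fewer cells of a type and less RNA per cell cannot be told apart.

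The Nr4a family was higher than sham on average in all 6 comparisons, with 3 of 3 members above 0 each time. Near 0 this did not hold for each array: Nr4a3 in young liver turned below 0 without 1 array, to -0.00 at 60 min and -0.04 at 90 min, and so did Nr4a2 in adult liver at 30 min, to -0.00. The family median was 0.19, 0.16 and 0.08 on the log2 scale at 30, 60 and 90 min in young liver, and 0.28, 0.34 and 0.40 in adult liver. The median of all genes lay between -0.055 and -0.022 in these comparisons. The comparisons of one age share their sham arrays, so they are not independent of each other.

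Nr4a1 (chr15:101253902-101274795, GRCm38.p6), also known as Nur77, is the member best known in liver. In adult liver its ratio was 0.972, 1.39 and 0.641 in the sham arrays and 1.35, 2.14 and 1.70 in the arrays after 90 min. The lowest ischemic array lay just under the highest sham array, so the groups overlap through adult sham replicate 2. The mean was 1.73 ± 0.395 (SD, n = 3) after 90 min against 1.00 ± 0.373 in sham. The change was 0.83 ± 0.21 on the log2 scale (SE; limma adjusted p = 0.0268, 95% interval 0.40 to 1.27). Without adult sham replicate 2 it was 1.11 (limma adjusted p = 0.00785). Leaving out any of the other 5 arrays ended the call: the limma adjusted p was 0.0597 without sham replicate 1, 0.149 without sham replicate 3, where the change was 0.55, and 0.06, 0.0992 and 0.0684 without the ischemic replicates 1, 2 and 3. The call was also lost with quantile normalization (limma adjusted p = 0.413) and in a fit of the adult arrays alone (limma adjusted p = 0.0851).

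At the shorter times in adult liver Nr4a1 was at 1.85, 1.54 and 1.22 after 30 min and at 1.27, 1.74 and 1.28 after 60 min. These are changes of 0.67 ± 0.21 (limma adjusted p = 0.411) and 0.57 ± 0.21 (limma adjusted p = 0.0697), which did not pass. Every one of the 9 ischemic adult arrays was above 1, and 5 of them were above the highest sham array. Without adult sham replicate 2, both changes passed, at 0.94 (limma adjusted p = 0.0493) and 0.84 (limma adjusted p = 0.0379). Between arrays with the same first part of the title code, the log2 difference was 0.93, 0.15 and 0.93 at 30 min and 0.39, 0.33 and 0.99 at 60 min. At 90 min such differences were -0.04, which is near 0, and 1.57, which averages 2 ischemic arrays.

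In young liver Nr4a1 was at 1.10, 1.02 and 0.874 in sham, 1.12, 1.17 and 1.12 after 30 min, 1.24, 1.45 and 1.39 after 60 min, and 1.30, 1.35 and 1.29 after 90 min. All 9 ischemic arrays exceeded the highest sham array. The changes were smaller than in adult liver and did not pass: 0.19, 0.45 and 0.40 ± 0.21, with limma adjusted p = 0.832, 0.468 and 0.605. The young groups were also narrower, with an SD of 0.116 in sham and 0.0349 after 90 min. All 5 young pairs of arrays with one title code had the ischemic array higher. The difference between the ages in the response is tested further on.

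Nr4a2 (chr2:57106830-57124003), also known as Nurr1, stayed close to sham, in a narrow range. In young liver it was at 0.984, 0.999 and 1.02 in sham and at 1.11, 1.11 and 1.13 after 60 min. In adult liver it was at 0.996, 0.982 and 1.02 in sham, at 1.10, 1.12 and 1.18 after 60 min, and at 1.07, 1.05 and 1.15 after 90 min. These groups did not overlap with sham, and in each age 8 of 9 ischemic arrays were above the highest sham array. The changes were 0.16 ± 0.07 in young liver at 60 min (limma adjusted p = 0.441), and 0.18 ± 0.07 (limma adjusted p = 0.0669) and 0.12 ± 0.07 (limma adjusted p = 0.218) in adult liver at 60 and 90 min. None passed, and the adult value at 60 min passed with arrays centred on their median (0.24, limma adjusted p = 0.0426). Pairs of adult arrays with one title code differed by 0.15, 0.18 and 0.21 at 60 min, all in the same direction.

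Nr4a3 (chr4:48045078-48086447), also known as Nor1, was at 1.04, 1.02 and 0.935 in adult sham liver. It was at 1.35, 1.41 and 0.93 after 30 min, 1.18, 1.24 and 1.38 after 60 min, and 1.14, 1.48 and 1.34 after 90 min. In adult liver 8 of 9 ischemic arrays were above all sham arrays, and the groups at 60 and 90 min did not overlap with sham. The changes were 0.28, 0.34 and 0.40 ± 0.14, with limma adjusted p = 0.498, 0.105 and 0.0845, and did not pass. In young liver 4 of 9 ischemic arrays were above the highest sham array, and the changes were 0.21, 0.12 and 0.08. Of the pairs with one title code, 7 of 8 in adult liver and 2 of 5 in young liver had the ischemic array higher, and both young pairs at 60 min had it lower (-0.09 and -0.07). Nr4a1 and Nr4a3 had a Pearson correlation of 0.67 over the 24 arrays, which share their scaling to sham.

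**Figure D2:**
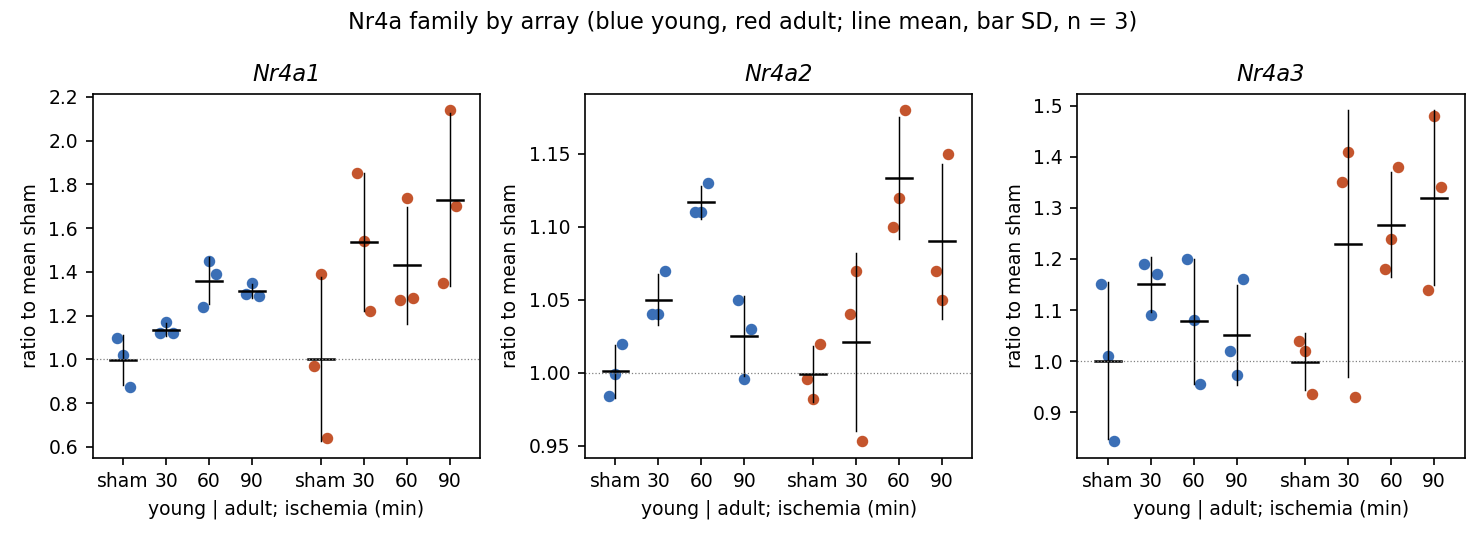
Ratio to the mean sham array of the same age for Nr4a1, Nr4a2 and Nr4a3 in each of the 24 arrays, by age and min of ischemia; lines are means and bars SD (n = 3). All 9 young ischemic arrays lie above young sham for Nr4a1, and 1 adult sham array, at 1.39, lies well above the other adult sham arrays.

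T and NK cell markers lay mostly above sham in adult liver, as did the Nr4a genes, and these are cells in which Nr4a genes are also induced. The list median was 0.16, 0.17 and 0.12 at 30, 60 and 90 min, while the Nr4a family median was 0.28, 0.34 and 0.40. All 8 measured markers were above 0 at 30 and 90 min and 7 of 8 at 60 min, against 4 of 8 at each time in young liver, and 0 of 8 passed in any comparison. Of all genes, 57%, 58.7% and 56.5% were below 0 in adult liver at 30, 60 and 90 min. The mean log2 ratio of the markers per array was between -0.05 and 0.05 in adult sham and between 0.07 and 0.28 in the 9 adult ischemic arrays. In adult replicate 3 at 30 min this mean was 0.25, while the ratios of Nr4a1, Nr4a2 and Nr4a3 were 1.22, 0.953 and 0.93. Cd3e, the signalling chain of the T cell receptor, was among the 3 genes most correlated with Nr4a1 over all arrays (r = 0.83). B cell markers lay above sham in adult liver too, with 3, 3 and 2 of 3 above 0 and list medians of 0.45, 0.34 and 0.12. In young liver 1, 2 and 3 of the 3 were above 0, and 0 passed in either age. The mean of the B cell list ran from -0.40 to 0.35 over the adult sham arrays. The part of T, NK and B cells in the Nr4a values was not tested.

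The 250 bases before the start of a transcript were read from the RefSeq table for GRCm38.p6, which holds windows for 7 of the 10 factors. They are shown for Nr4a1 and Nr4a2 because the family members lay on one side of sham and their windows share a motif. Capitals mark the CRE half-site TGACG, searched on both strands, which is bound by CREB. The Nr4a1 window (chr15:101266596-101266845, plus strand) precedes the start of its shorter transcripts and lies inside the annotated gene. The Nr4a2 window (chr2:57124004-57124253) is on the minus strand.
Nr4a1: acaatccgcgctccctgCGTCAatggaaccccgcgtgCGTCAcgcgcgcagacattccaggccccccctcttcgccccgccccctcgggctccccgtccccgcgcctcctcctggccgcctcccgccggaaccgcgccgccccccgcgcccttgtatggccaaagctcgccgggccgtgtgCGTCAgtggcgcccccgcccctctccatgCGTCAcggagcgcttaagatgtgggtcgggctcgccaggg
Nr4a2: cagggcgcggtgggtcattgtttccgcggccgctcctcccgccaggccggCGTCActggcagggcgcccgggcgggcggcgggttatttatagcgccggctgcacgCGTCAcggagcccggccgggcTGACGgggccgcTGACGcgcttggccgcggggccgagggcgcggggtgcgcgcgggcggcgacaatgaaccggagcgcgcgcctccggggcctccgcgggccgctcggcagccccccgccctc
Each holds 4 half-sites. In Nr4a1 they begin at -233, -213, -69 and -40 from the start, and in Nr4a2 at -200, -144, -123 and -111. The Nr4a3 window (chr4:48045055-48045304, plus strand) also holds 4, at -231, -213, -205 and -147. Since the annotated gene begins at 48045078, most of this window lies inside it, and it is described without being printed. At least 1 half-site is found in 17.8% of the 32851 windows of all genes, and 4 or more in 45 of them, or 0.137%, a threshold set after the counts were seen. Klf2 and Klf4 hold 1 each, Klf6 holds 0, and 3 overlapping windows of Egr2 hold 2 each. A match is a description of the letters and not of binding.

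Egr1 (chr18:34861207-34864956), a factor that switches on within minutes of growth factor or stress signals, had the largest average difference of the Egr family. In young liver it was at 0.677, 1.10 and 1.22 in sham, 1.52, 1.53 and 0.943 after 30 min, 2.70, 2.20 and 0.996 after 60 min, and 2.43, 2.08 and 1.65 after 90 min. Of the 9 ischemic arrays 7 were above the highest sham array, and the group at 90 min did not overlap with sham. The means were 1.96 ± 0.875 (SD, n = 3) at 60 min and 2.05 ± 0.389 at 90 min. The changes of 0.42, 0.90 and 1.06 ± 0.43 did not pass, with limma adjusted p = 0.816, 0.477 and 0.418. Pairs of arrays with one title code differed by 1.70 and -0.14 at 60 min and by 1.62 and 0.58 at 90 min.

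In adult liver the sham arrays of Egr1 spread from 0.449 to 1.81, with an SD of 0.716, and adult sham replicate 2 was the highest of all 12 adult arrays. The ischemic arrays were at 1.51, 1.47 and 1.48 after 30 min, 1.66, 1.63 and 0.757 after 60 min, and 1.38, 1.67 and 0.772 after 90 min. None of them exceeded that sham array. The changes were 0.82, 0.59 and 0.52 ± 0.43 (limma adjusted p = 0.501, 0.351 and 0.428), and over the left-out arrays they ran from 0.36 to 1.37, 0.13 to 1.14 and 0.07 to 1.07. The highest of each range was without adult sham replicate 2, and it did not pass either.

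Egr2 (chr10:67534469-67542188), known for its role in myelination and in lymphocytes, stayed near sham. Its ratio was 0.930 to 1.04 in young sham and 0.930 to 1.11 in the 9 young ischemic arrays. The changes were -0.04, -0.02 and 0.05 ± 0.11 in young liver, with 95% intervals from -0.26 to 0.18, -0.24 to 0.20 and -0.18 to 0.27. In adult liver they were 0.13, 0.10 and 0.13, with intervals from -0.10 to 0.35, -0.12 to 0.33 and -0.10 to 0.35. One adult array at 60 min reached 1.33, the highest Egr2 value of the 24. In pairs with one title code the ischemic array was higher in 1 of 5 young and 6 of 8 adult pairs.

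Egr3 (chr14:70077317-70082613), a factor of the same DNA-binding class that is induced in activated lymphocytes and neurons, was at 0.850 to 1.15 in young sham and 0.961 to 1.07 in adult sham. Its changes were 0.16, 0.15 and 0.01 ± 0.12 in young and 0.14, 0.17 and 0.17 in adult liver, none of which passed. No Egr3 group stood clear of its sham arrays, and the ischemic array was higher in 3 of 5 young and 6 of 8 adult pairs with one title code. Over the 24 arrays Egr1 and Nr4a1 correlated at r = 0.50, and Egr3 and Nr4a3 at r = 0.58.

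**Figure D3:**
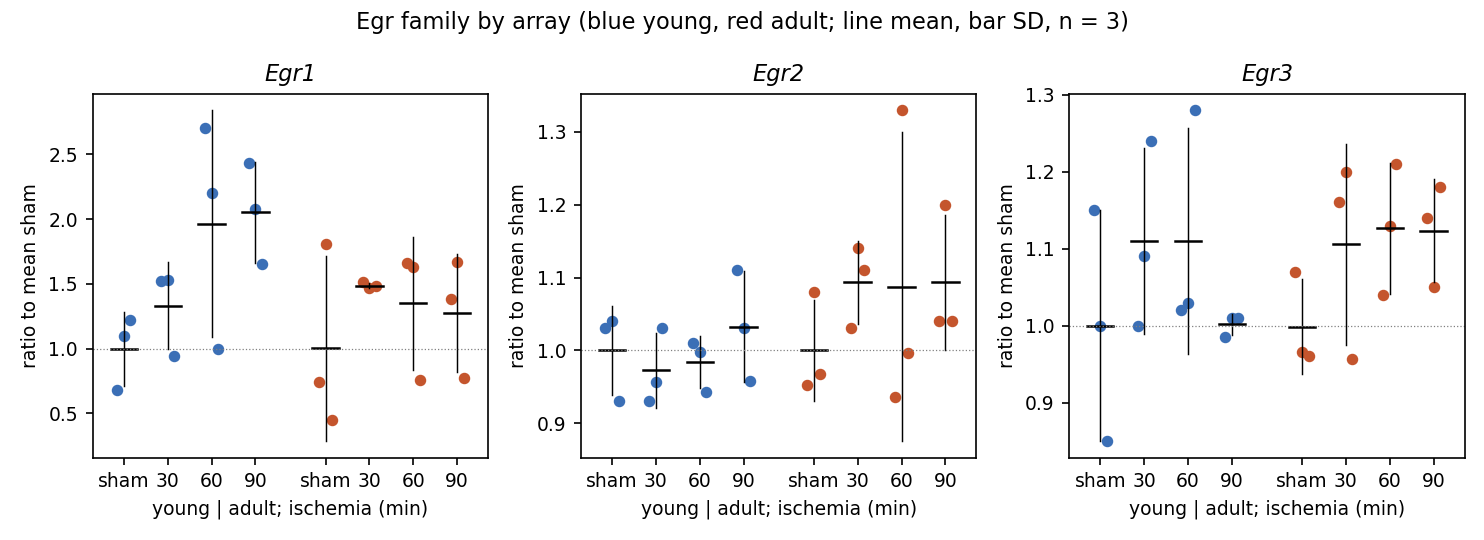
Ratio to the mean sham array of the same age for Egr1, Egr2 and Egr3 in each array, by age and min of ischemia; lines are means, bars SD (n = 3), and each panel has its own vertical scale. Egr1 reaches 2.70 in young liver, while Egr2 and Egr3 stay between 0.850 and 1.33 in all 24 arrays.

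Of 14 other Egr genes, corepressors and known Egr1 targets, 0 passed in young liver and in adult liver at 30 and 90 min. At 60 min in adult liver, where 11.9% of all genes passed, 1 passed: the cytokine gene Tnf rose by 0.42 ± 0.13 (limma adjusted p = 0.0435). The list median ran from -0.11 to 0.02 over the 6 comparisons. The corepressor Nab2, itself a known Egr target, was below sham in all 6, from -0.46 in young liver at 90 min to -1.08 in adult liver at 30 min (limma adjusted p = 0.411). Egr1 and Nab2 thus lay on opposite sides of sham, although neither passed. Adult sham replicate 2, the highest adult sham array for Egr1, was the lowest for Nab2, at 0.465 against 1.17 and 1.36 in the other adult sham arrays.

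Klf10 (chr15:38291464-38300711) had the lowest values of the 10 genes. In young liver it was at 1.32, 1.14 and 0.547 in sham, 0.230, 0.157 and 0.259 after 30 min, 0.281, 0.585 and 0.347 after 60 min, and 0.309, 0.286 and 0.284 after 90 min. Of the 9 ischemic arrays 8 were below all sham arrays, and the groups at 30 and 90 min did not overlap with sham. The mean was 0.215 ± 0.053 (SD, n = 3) after 30 min against 1.00 ± 0.402 in sham. The changes were -2.15, -1.28 and -1.68 ± 0.60, with limma adjusted p = 0.196, 0.469 and 0.329, and did not pass in the fit of all 8 groups. In a fit of the young arrays alone they passed at 30 min (limma adjusted p = 0.0102) and 90 min (limma adjusted p = 0.0404). Without young sham replicate 3 they were -2.54, -1.67 and -2.06, and in all 5 pairs with one title code the ischemic array was lower. The 95% intervals were -3.40 to -0.90, -2.54 to -0.03 and -2.93 to -0.42.

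In adult liver the arrays of Klf10 disagreed within groups. Sham was at 1.08, 0.265 and 1.65, 60 min at 2.17, 0.710 and 0.606, and 90 min at 0.327, 0.429 and 1.73. The 3 arrays at 30 min were close together, at 0.277, 0.297 and 0.224, at the level of the low sham array. The changes were -1.56 ± 0.60 (limma adjusted p = 0.462) at 30 min, 0.33 (limma adjusted p = 0.741) at 60 min and -0.32 (limma adjusted p = 0.748) at 90 min. Without adult sham replicate 2 the changes were -2.34, -0.45 and -1.10, which turns the direction at 60 min, and without adult sham replicate 3 the change at 30 min was -1.02. The direction at 90 min turned too, to 0.22, without adult sham replicate 3. Pairs of arrays with one title code differed by -1.96, 0.17 and -2.88 at 30 min, 1.01, 1.42 and -1.45 at 60 min, and 0.31 and -0.94 at 90 min. The last value averages ischemic replicates 2 and 3, which were at 0.429 and 1.73 against 1.65 in sham replicate 3.

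The genes most like Klf10 over the 24 arrays were Fbxo31 (r = 0.91), which encodes an F-box protein, and the clock-controlled factors Dbp (r = 0.91) and Tef (r = 0.90). These correlations are descriptions over arrays that share their scaling. In adult sham Dbp was at 1.61, 0.146 and 1.24 and Tef at 1.33, 0.531 and 1.14, with the low value in the same array as for Klf10. In young sham replicate 3 Dbp was at 0.130 and Tef at 0.609, again the lowest of the group, and the second part of this array's title code differs from that of the other young sham arrays. Dbp and Tef are output genes of the circadian clock whose level in liver depends on the time of day, and the time of day of sampling is not given in the labels. Its part in the Klf10 values was not tested.

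**Figure D4:**
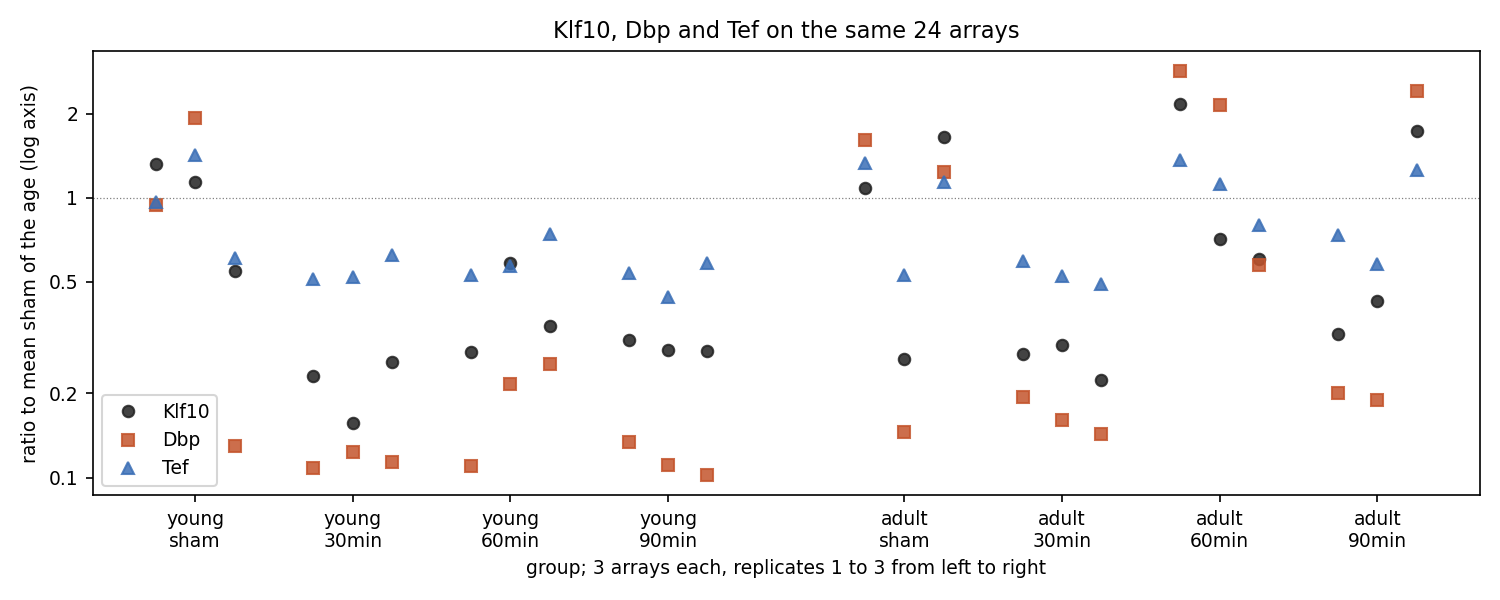
Ratio to the mean sham array of the same age, on a log axis, for Klf10, Dbp and Tef in each of the 24 arrays by age and min of ischemia. Adult sham replicate 2 is low for all 3 genes (0.265, 0.146 and 0.531), and the young ischemic arrays are low throughout.

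Klf2 (chr8:72319062-72321654), a flow-induced factor of endothelium and resting T cells, was at 0.863, 1.09 and 1.05 in young sham. It was at 0.831, 0.804 and 0.778 after 30 min, 0.804, 0.770 and 0.831 after 60 min, and 0.861, 0.872 and 1.15 after 90 min. Of the 9 ischemic arrays 7 were below all sham arrays. The changes of -0.31, -0.31 and -0.06 ± 0.20 did not pass (limma adjusted p = 0.705, 0.577 and 0.981). In adult liver the average lay on the other side: sham was at 1.09, 1.05 and 0.867, and 90 min at 0.798, 1.44 and 1.64. The adult changes were 0.10, 0.29 and 0.31, with limma adjusted p = 0.846, 0.315 and 0.292. At 90 min the change was 0.63 without ischemic replicate 1 and 0.11 without ischemic replicate 3. In pairs with one title code the ischemic array was lower in 3 of 5 young and 4 of 8 adult pairs.

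Klf4 (chr4:55527137-55532475), which in endothelium shares many targets with Klf2, was closest to Klf2 in pattern (r = 0.78). In young liver it was at 1.11, 0.982 and 0.908 in sham and 0.755, 0.682 and 0.757 after 30 min, and these groups did not overlap. The change was -0.45 ± 0.21 (limma adjusted p = 0.581), and it was -0.13 at both later times. In adult liver it was at 0.888 to 1.15 in sham, 1.01, 1.73 and 1.16 after 60 min, and 0.928, 1.97 and 1.47 after 90 min. The adult changes were -0.16, 0.35 and 0.48 ± 0.21, with limma adjusted p = 0.136 at 90 min. Without ischemic replicate 2 they were 0.12 at 60 min and 0.23 at 90 min, and without ischemic replicate 1 the change at 90 min was 0.77. Pairs of arrays with one title code differed by 0.06 and 0.83 at 90 min.

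Klf6 (chr13:5861489-5870393) was at 0.930 to 1.04 in young sham and at 0.862, 0.873 and 0.885 after 30 min, which is a small but separate range. Its changes were -0.19, -0.23 and 0.00 ± 0.11 in young liver and -0.11, -0.14 and -0.13 in adult liver, and none passed. In each age 6 of 9 ischemic arrays were below all sham arrays, and in pairs with one title code the ischemic array was lower in 4 of 5 young and 7 of 8 adult pairs. Among these adult pairs, 1 at 90 min averages ischemic replicates 2 and 3, at 0.887 and 1.12 against 1.06 in sham replicate 3. All 4 Klf genes were below sham on average in young liver at 30 and 60 min, where 56.6% and 55.3% of all genes were. All 4 groups at 30 min lay wholly below sham, against 14.8% of all genes that were separate in either direction. In adult liver 3 of 4 were below at 30 min, 1 of 4 at 60 min and 2 of 4 at 90 min.

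**Figure D5:**
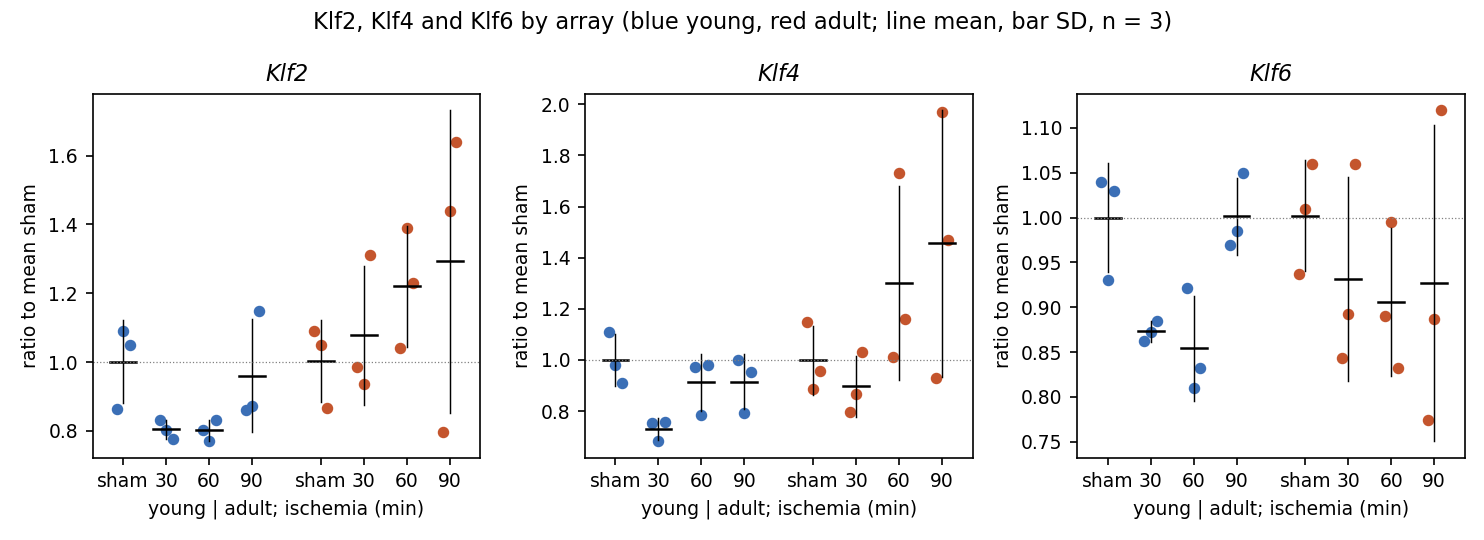
Ratio to the mean sham array of the same age for Klf2, Klf4 and Klf6 in each array, by age and min of ischemia; lines are means, bars SD (n = 3), and each panel has its own vertical scale. In young liver at 30 min all arrays of the 3 genes lie below their sham arrays, while adult Klf2 and Klf4 reach 1.64 and 1.97 at 90 min.

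Markers of sinusoidal and other endothelium lay mostly below sham in both ages, in young liver together with the Klf genes and in adult liver at 60 and 90 min while Klf2 and Klf4 were above sham. Of 10 measured, 8, 10 and 9 were below 0 in young and 7, 7 and 9 in adult liver at 30, 60 and 90 min, and 1 passed, at 90 min in adult liver (Stab2, a scavenger receptor of sinusoidal cells, -0.42). The mean log2 ratio of the list per array was -0.11 to 0.09 in young sham and -0.37 to -0.15 in the 9 young ischemic arrays. In adult liver after 90 min it was -0.64, -0.12 and -0.12, with the low value in the array that was the lowest of its group for Klf2, Klf4 and Klf6. Emcn, an endothelial sialomucin, was the gene most correlated with Klf2 (r = 0.81). Of 8 stellate cell markers all were below 0 in young liver at 60 and 90 min. At 90 min 4 of them fell (Reln, Rgs5, Colec11 and Ecm1, from -0.78 to -1.04), as did Rgs5 and Colec11 in adult liver. The log2 change of Klf6 at 90 min was 0.00 in young and -0.13 in adult liver. Of 9 Kupffer cell markers 8 fell in adult liver at 90 min, Vsig4 by 1.54 and Clec4f by 0.90 among them, with a list median of -1.18. All 9 were below 0 in young liver at 60 min and in adult liver at 30 and 60 min, with medians of -0.40, -0.53 and -0.60. In young liver 7 were below 0 at 90 min, and 4 were above and 5 below 0 at 30 min. The mean of the Kupffer list ran from -0.52 to 0.52 over the adult sham arrays. Of 9 hepatocyte markers 1 fell, Hnf4a in adult liver at 90 min, by 0.56. Over all genes 0.181% passed at 90 min in young liver and 7.45% in adult liver. The part of these cells in the Klf values was not tested.

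The windows of Klf2 (chr8:72318812-72319061, plus strand) and Klf4 (chr4:55532476-55532725, minus strand) are shown because this pair was most alike and both hold a site for the Egr family. Capitals mark the site GCGNGGGCG on either strand and, in Klf2, also a match to the MEF2 motif, through which flow is known to induce Klf2 by ERK5.
Klf2: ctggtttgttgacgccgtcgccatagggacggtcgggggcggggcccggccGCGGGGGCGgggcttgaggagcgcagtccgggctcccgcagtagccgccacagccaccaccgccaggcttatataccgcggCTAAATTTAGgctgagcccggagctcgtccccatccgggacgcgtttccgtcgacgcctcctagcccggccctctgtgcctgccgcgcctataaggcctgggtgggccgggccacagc
Klf4: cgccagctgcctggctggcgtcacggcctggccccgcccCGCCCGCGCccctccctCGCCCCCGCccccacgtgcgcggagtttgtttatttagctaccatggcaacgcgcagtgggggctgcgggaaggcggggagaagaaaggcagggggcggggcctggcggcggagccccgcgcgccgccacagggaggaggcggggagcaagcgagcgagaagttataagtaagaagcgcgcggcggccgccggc
The Egr site begins at -199 in Klf2 and at -211 and -194 in Klf4, and the MEF2 match begins at -118. An Egr site is found in 4.7% of all windows and a MEF2 match in 2.92%. Nr4a1 and Nr4a2 also hold 1 Egr site each. No window of the 7 factors holds the Nr4a monomer site AAAGGTCA, found in 1.34% of all windows. The SRF motif known as the CArG box was found at 2 places near Egr2, of which 1 is shared by overlapping windows, and in 1.47% of all windows.

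Of 7 measured endothelial and lymphocyte genes known as Klf2 or Klf4 targets, 0 passed in any comparison with sham. Thrombomodulin (Thbd), an anticoagulant receptor raised by Klf2, had log2 changes of -1.05, -0.86 and -0.87 in young liver (limma adjusted p = 0.154 at 30 min). In adult liver they were -0.51, -0.56 and -0.40. The adhesion gene Vcam1 was at -0.73, -0.72 and -0.73 in young liver. The lipid receptor S1pr1, a Klf2 target in T cells, was on the other side of sham in young liver, with log2 changes of 0.61, 0.49 and 0.50. Of 11 other Klf genes measured, 0 passed. Among them Klf13 was at -1.08, -0.71 and -0.83 in young and -0.88, -0.18 and -0.41 in adult liver. Adult sham replicate 2 was the lowest adult sham array for both Thbd (0.628) and Klf13 (0.549).

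Groups that did not overlap with sham were counted over all 10 factors. In young liver there were 2 higher and 4 lower at 30 min, where 14.8% of all genes were separate in either direction, 2 higher and 2 lower at 60 min (13.3% of all genes), and 2 higher and 1 lower at 90 min (13.9%). In adult liver there were 0 at 30 min (11.5% of all genes), and Nr4a2 and Nr4a3 were higher and none lower at 60 min (37% of all genes) and 90 min (39.1%). The young counts of 6, 4 and 3 of 10 are above the share of all genes, and the adult counts of 2 of 10 are below it at 60 and 90 min. Since the 10 genes were listed with earlier results in view, these counts are a description.

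The response was then compared between the ages, as the adult change minus the young change at each time. The ages share no value of the first part of the title code, so age and code cannot be told apart here. None of the 10 factors passed, and 0% of all genes did at 30, at 60 and at 90 min, while 302, 978 and 1612 genes had an unadjusted p under 0.05. Among the factors this held for Klf2 at 60 min alone, where the adult change was 0.60 ± 0.28 above the young one (limma adjusted p = 0.704, 95% interval 0.02 to 1.17). The differences for Klf2 at 30 and 90 min were 0.40 and 0.38. For Klf4 they were 0.29, 0.48 and 0.61 ± 0.30 (limma adjusted p = 0.445 at 90 min), and for Klf10 0.59, 1.61 and 1.35 ± 0.85. Over all 10 factors the adult response was the higher one in 8, 9 and 8 of 10, while 50.7%, 59.4% and 53.6% of all genes lay on the other side. Without adult sham replicate 2 the Klf10 difference at 30 min turned to -0.19. For Nr4a1 the differences were 0.48, 0.12 and 0.43 ± 0.29, so that the pass in adult liver at 90 min is not shown to differ from young liver. For Egr1 they were 0.40, -0.31 and -0.54 ± 0.61, and 0.95, 0.24 and 0.01 without adult sham replicate 2.

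Neighbouring times of ischemia were compared within each age. No factor passed, and the share of all genes was 0% in young liver between 30 and 60 min and between 60 and 90 min, and 0% in adult liver for the same steps, with 741, 1339, 1260 and 458 genes under an unadjusted p of 0.05. Among the factors 3 had an unadjusted p under 0.05, all between 30 and 60 min in adult liver. They were Klf10, Klf4 and Nr4a2, with log2 changes of 1.89 ± 0.60, 0.50 ± 0.21 and 0.15 ± 0.07, each with limma adjusted p = 0.562. For Klf10 the arrays were at 0.277, 0.297 and 0.224 at 30 min and spread over 2.17, 0.710 and 0.606 at 60 min. The clock-controlled genes Dbp and Tef were also lower at 30 min, with mean ratios of 0.166 and 0.537 against 1.85 and 1.09 at 60 min. The other factors and steps had an unadjusted p above 0.05.

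Of 20 other immediate early genes, 1 fell in young liver at 30 min and 0 passed at 60 and 90 min. That gene was Fosl2, a Fos family member, at -0.63 ± 0.09 (limma adjusted p = 0.00389). In adult liver 1 rose and 2 fell at 60 min, and 2 rose at 90 min. Over all genes 0.0557% passed in young liver at 30 min, and 11.9% and 7.45% in adult liver at 60 and 90 min. In adult liver Ccn1, which encodes a matricellular protein, rose by 0.88 at 60 min (limma adjusted p = 0.0127) and by 0.82 at 90 min (limma adjusted p = 0.0114), and the stress factor Atf3 rose by 1.22 at 90 min (limma adjusted p = 0.0325). Fosl2 fell by 0.40 (limma adjusted p = 0.0282) and the kinase gene Sgk1 fell by 1.25 (limma adjusted p = 0.04) at 60 min. The AP-1 gene Jun, the gene most correlated with Egr1 (r = 0.75), had log2 changes of 1.07, 1.08 and 1.53 in young liver without passing. Its mean ratio at 30, 60 and 90 min was 2.07, 2.02 and 2.86 in young liver. In adult liver the mean ratio was 2.3, 2.57 and 1.63, and Jun did not pass there either. The adult sham arrays of Jun were at 0.548, 1.86 and 0.589.

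Among 23 measured genes of the signalling that switches these factors on, 0 passed in young liver or in adult liver at 30 and 90 min. At 60 min in adult liver 11.9% of all genes passed. Of this list the SRF partner Elk4 rose by 0.42 (limma adjusted p = 0.0392), and 3 fell. Among these 3 were the CREB relative Atf1 by 0.69 (limma adjusted p = 0.0298) and the kinase Map2k1 by 0.56 (limma adjusted p = 0.0346). Of 8 Nr4a partners and glucose genes, 1 fell, the nuclear receptor Rxra at 90 min in adult liver, by 0.33 (limma adjusted p = 0.0456). At that time 7.45% of all genes passed. G6pc, the last enzyme of glucose production and a known Nr4a1 target, had log2 changes of 1.21, 1.05 and 1.18 in young liver (limma adjusted p = 0.275, 0.371 and 0.244). Pck1, an early enzyme of the same pathway, had log2 changes of -0.51, -0.41 and -0.31 in young liver, so the 2 genes lay on opposite sides of sham there. These values are of young liver alone, whereas the Nr4a1 call was in adult liver. Of the 8 genes, 3, 2 and 4 were above and 5, 6 and 4 below 0 in adult liver at 30, 60 and 90 min. The list medians there were -0.13, -0.08 and -0.05.

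The rule for likeness took the 3 genes with the highest Pearson correlation over the 24 arrays, with no test. For Nr4a1 these were Slc7a3, Dhx57 and Cd3e (0.84, 0.84 and 0.83), for Nr4a2 Il1rl2, Kif4 and Ace (0.81, 0.77 and 0.77), and for Nr4a3 Cacng7, Med18 and Ajm1 (0.93, 0.90 and 0.90). For Egr1 they were Jun, Inpp5f and Zfp36l1 (0.75, 0.75 and 0.74), for Egr2 Olfr160, Kazn and Slc12a4 (0.72, 0.72 and 0.71), and for Egr3 Klk1b21, Aebp1 and Dusp7 (0.91, 0.82 and 0.81). For Klf2 they were Emcn, Klf4 and Fosb (0.81, 0.78 and 0.73), and for Klf6 Tdp2, Gadd45a and Gimap6 (0.72, 0.70 and 0.69). Only Klf2 and Klf4 had another of the 10 factors among their 3. Egr1 and Klf10 ran against each other, at r = -0.57.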

How the data were processed

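RNA of 24 mouse livers was measured on Affymetrix 3' arrays. The deposited values are linear ratios. Per the submitters' processing notes RMA was used, with no version given, and in the deposited table the 3 sham ratios of each age average 1 for every probe set (within 2.0e-07), so array brightness is not kept. Of 26180 probe sets, 15228 had 1 gene symbol through their RefSeq accession. They name 14351 genes, and 661 genes had several probe sets. Log2 ratios were fitted with limma 3.58.1 in R 4.3.3, with a mean for each of 8 groups, 16 residual degrees of freedom and Benjamini-Hochberg adjustment over all genes of a comparison. Groups were taken from the sample titles. All 10 factors are named, with listed genes that passed, those furthest from sham in a list, and the 3 genes most correlated with each factor. The factors and lists were chosen with earlier results of these data known. Alternatives were every probe set, the mean of probe sets, median centring, quantile normalization, the title code as a block, a robust prior, arrays of one age, and each replicate left out. One gene of the signalling list that passed is not reported here. The procedure was tested on simulated data. Array number limits the precision.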

Additional observations from a re-analysis of the deposited data

How the results depend on the processing

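Alternative values were counted for 78 changes that the text reports. These are all changes from sham, the age differences of Egr1, Nr4a1, Klf2, Klf4 and Klf10, and the adult step from 30 to 60 min of Klf10, Klf4 and Nr4a2. The other age differences and steps of the 10 factors are not in these counts. Of 1089 alternative values, 1048 kept their direction and their side of the threshold, 7 lost and 5 gained the call, and 29 turned direction. The number of factors that passed was 1 in place of 0 in young liver at 30 min, at 90 min and over all times with arrays of that age only, 1 in place of 0 in adult liver at 60 min with arrays centred on their median, and 0 in place of 1 at 90 min with quantile normalization and with adult arrays only. With 1 replicate left out it ran from 0 to 1 in adult liver at 30, 60 and 90 min and over all times. The cause of these changes was not tested. The fits of a single age and those with a replicate left out also hold fewer arrays.

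Directions turned in values near 0 or with a wide spread. Egr2 in young liver at 60 min was 0.01 with arrays centred on their median, and the age difference of Egr1 at 60 min was 0.09 with quantile normalization. With a replicate left out, Egr2 ran from -0.07 to 0.01 and Nr4a3 from -0.00 to 0.22 in young liver at 60 min. In young liver at 90 min Egr2 ran from -0.01 to 0.10, Egr3 from -0.10 to 0.11, Nr4a3 from -0.04 to 0.18, Klf2 from -0.20 to 0.01 and Klf6 from -0.05 to 0.03. In adult liver Nr4a2 ran from -0.00 to 0.08 and Klf2 from -0.05 to 0.19 at 30 min, Egr2 from -0.05 to 0.20 and Klf10 from -0.45 to 0.87 at 60 min, and Klf10 from -1.10 to 0.22 at 90 min. The age difference ran from -0.06 to 0.95 for Egr1 and -0.19 to 1.13 for Klf10 at 30 min, from -0.77 to 0.24 for Egr1 and -0.16 to 0.39 for Nr4a1 at 60 min, and from -1.0 to 0.01 for Egr1 at 90 min.

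Over all genes, the counts that passed were 1712 and 1069 in adult liver at 60 and 90 min. They ran from 1 to 2177 and from 7 to 806 with a replicate left out, and down to 0 and 3 with quantile normalization. In young liver they were 8, 4 and 26, and 4 to 9, 1 to 6 and 2 to 52 with a replicate left out.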
